A study of Canis lupus familiaris with 4 samples.

Results

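The regions described here are the 497 sites most strongly enriched for TWIST1 in both of 2 replicate ChIP-seq experiments, out of 2809 sites that both experiments shared. TWIST1 was mapped in MDCK cells, an epithelial line from dog kidney, here modified to express human TWIST1 at all times, kept under puromycin selection and carrying a mesenchymal phenotype. Chromatin was precipitated with a monoclonal antibody to TWIST1, and input chromatin of the same cells, taken without precipitation, served as the reference. There were 2 TWIST1 libraries and 2 input libraries, from 2 independent experiments called replicates 1 and 2, and no group received a treatment. All libraries came from cells with the transgene, so no region was set against parental MDCK cells here. Neither the promoter of the transgene nor the number of clones is stated in the labels. Peak lists hold no expression values, so the cell type could not be checked against its markers.

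TWIST1 is a basic helix-loop-helix transcription factor. It binds DNA as a dimer, often with an E protein such as TCF3, TCF4 or TCF12, at short palindromic motifs called E-boxes. In the embryo it is needed for the mesenchyme of the head, and in epithelial cells its expression drives the loss of cell junctions and the gain of a mesenchymal state. The title of the series places the work in a search for TWIST1 targets in the mesoderm of the head.

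A shared region was the merged interval of overlapping peaks, with q ≤ 0.05 in each replicate. In each replicate the region took the values of its peak of lowest p. The strong regions were chosen by fold enrichment, which had to be 5 or more in each replicate. Fold enrichment is the number of fragments piled up at the summit over the number expected there from the local background, with 1 added to both, so it is smaller than the plain ratio of the pileups and backgrounds given below. These are the authors' own peak values, and since the regions were selected on them, enrichment, width and summit shape are given as a description, with no test. The 497 regions made up 17.7% of the shared regions. Among all peaks with q ≤ 0.05, fold enrichment was at least 5 at 7.93% of 25036 peaks in replicate 1 and at 2.91% of 20333 peaks in replicate 2. The files give no reads. Pileups recovered from the peak statistics came out whole (within 0.05) in 100% of peaks, over genome-wide backgrounds of 2.03 (replicate 1) and 4.33 (replicate 2) fragments per position. Intervals in parentheses after a fold are exact Poisson 95% intervals from the pileup, with the background held fixed, so they show counting error alone. Coordinates are on the dog build CanFam3.1. No gene is assigned to a region, because no annotation of that build was used here.

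The strong regions ranged from the limit of 5 up to a single site enriched more than 20-fold in both experiments. Their fold enrichment had a median of 9.42 in replicate 1 (quartiles 7.05 and 12.2, highest 34.3) and 6.33 in replicate 2 (quartiles 5.51 and 7.81, highest 20.8). The other 2312 shared regions had medians of 4.53 and 3.38. At its summit the median strong region held 36 fragments in replicate 1 (16 to 111) and 40 in replicate 2 (26 to 122), against 19 and 23 at the other shared regions. The median background at the summit was 1.46 times the genome-wide value in replicate 1 and 1.23 times in replicate 2, and at the other shared regions 1.46 and 1.27 times. No strong region had an input background of 5 times the genome-wide value or more, which allows a share of up to 0.604% (3 counts of the total). Of the other shared regions 121 did (5.23%). The background is the denominator of the fold on which the regions were selected, so the limit itself works against such regions. This contrast is therefore a description of the selection.

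**Figure D1:**
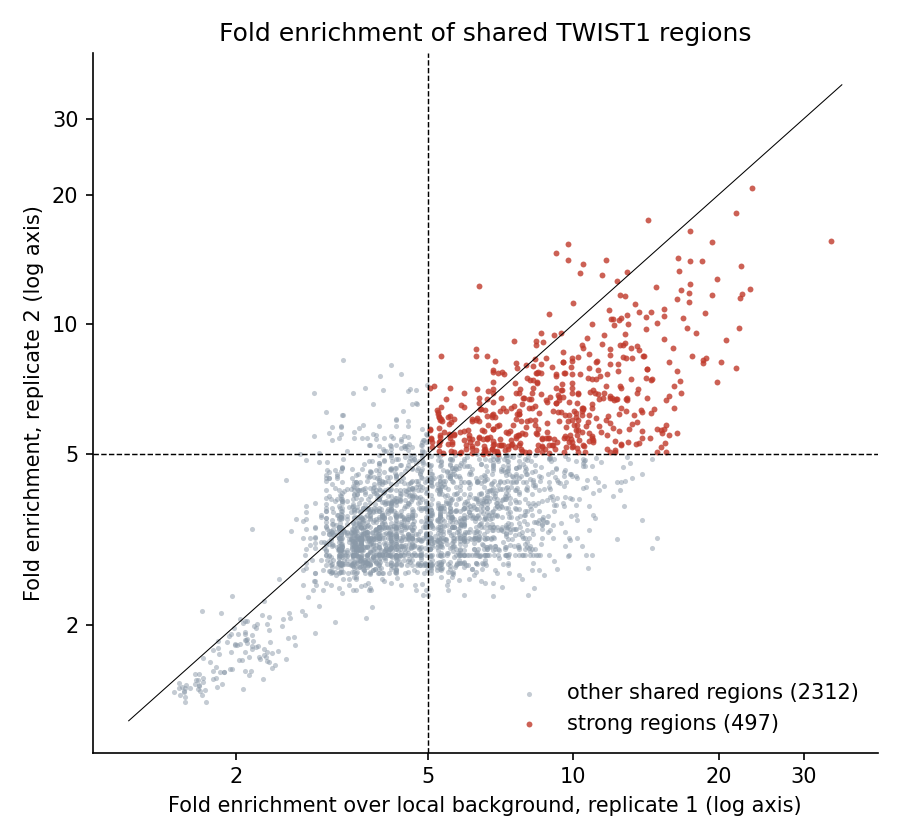
Fold enrichment of each shared region in replicate 1 (x axis) and replicate 2 (y axis), both on log axes; dashed lines mark the limit of 5 and the solid line equal values. The 497 strong regions (red) lie mostly below the line of equal values, with 422 (84.9%) higher in replicate 1, close to the 84.4% of the other regions, and 928 other regions (grey) passed the limit in replicate 1 only.

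The region of highest lower fold, chr22:9847135-9847825, had pileups of 78 and 120 fragments in replicates 1 and 2 and folds of 23.5 (18.6 to 29.3) and 20.8 (17.3 to 24.8). Its peaks were 673 and 670 bp wide and their summits lay 5 bp apart. Next came chr3:27932710-27933160, with pileups of 73 and 99 fragments and folds of 21.7 (17.1 to 27.2) and 18.2 (14.8 to 22.1). The third, chr6:12336973-12337659, had pileups of 76 and 89 fragments and folds of 17.5 (13.8 to 21.8) and 16.5 (13.3 to 20.2). At each of these 3 sites the intervals of the replicates overlapped and lay well above the limit.

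The limit cut through a continuous range of values. Just inside it, chr17:60954447-60954890 had folds of 6.99 and 5.006 in replicates 1 and 2, chrX:74202810-74203232 had 6.51 and 5.009, and chr9:24245287-24245765 had 5.82 and 5.01. Just outside it, chr24:4843892-4844313 had 6.33 and 4.99, chr4:15002780-15003305 had 4.99 and 5.54, and chr6:28819491-28819866 had 7.27 and 4.98. The lower fold was under 6 at 219 strong regions (44.1%). The counting interval lay wholly at or above 5 in both replicates at 178 strong regions (35.8%), and in replicate 2 alone at 196. In the other direction, the interval reached 5 in both replicates at 1207 of the 2312 other regions (52.2%). Membership near the limit is therefore not settled at this depth.

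Most regions that passed the limit in a single replicate passed it in replicate 1. Of the shared regions outside the set, 928 had a fold of at least 5 in replicate 1 only, 83 in replicate 2 only and 1301 in neither. Strong peaks of replicate 2 nearly all had a partner in replicate 1. Of its 591 peaks with q ≤ 0.05 and a fold of at least 5, 589 overlapped a listed peak of replicate 1 and 497 (84.1%) one with a fold of at least 5. The 2 without a partner had folds of at most 5.08. Of the 1985 such peaks of replicate 1, 1545 overlapped a listed peak of replicate 2 and 497 (25.04%) one with a fold of at least 5. The share with any partner was 61.1% at replicate 1 folds of 5 to 6, 79.8% at 6 to 7.5, 96.4% at 7.5 to 10 and 99.6% above 10. Only 1 of the 262 replicate 1 peaks enriched at least 10-fold had no partner, with a fold of 10.3. The replicate 2 background was 2.14 times that of replicate 1, and its part in these counts was not tested. At all strengths, the 25036 and 20333 peaks with q ≤ 0.05 gave 2809 shared regions. The share with a listed partner was not counted over all peaks, so the shares above have no base value beside them.

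Where the replicates differed beyond counting error at single strong regions, replicate 1 was nearly always the higher. The counting intervals of the folds were apart with replicate 1 higher at 91 strong regions and with replicate 2 higher at 1. The largest ratio was at chr5:65323152-65323623, with pileups of 46 and 26 fragments over the genome-wide background of each replicate and folds of 15.5 (11.5 to 20.6) and 5.06 (3.37 to 7.33). Similar values were found at chr20:37320513-37320969, with folds of 14.9 and 5.06, and at chr5:11656148-11656635, with 15.2 and 5.18. The log2 ratios of replicate 1 over replicate 2 at these 3 regions were 1.62, 1.55 and 1.55.

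In the opposite direction, chr33:16427514-16428113 had pileups of 43 and 77 fragments and folds of 6.37 (4.65 to 8.54) and 12.3 (9.72 to 15.3), a log2 ratio of -0.94. At this site the background was 2.92 times the genome-wide value in replicate 1 and 1.24 times in replicate 2. Folds at chr1:117530501-117530982 were 9.21 (7.18 to 11.64) and 14.6 (11.59 to 18.2), with backgrounds of 3.21 and 1.0 times the genome-wide value. At chr1:47350672-47351108 the folds were 5.33 (3.46 to 7.88) and 8.44 (6.39 to 10.9), with backgrounds of 1.73 and 1.302 times. At both regions on chromosome 1 the intervals of the replicates overlapped. At all 3 regions the replicate with the lower fold had the higher background multiple, and the part of the background in these folds was not tested.

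The strong regions were wider than the other shared regions in each replicate. Peak width in this list format is the length over which enrichment stays past the calling threshold, so a taller peak of the same shape is also wider. At the strong regions the median peak width was 443 bp (quartiles 399 and 500) for replicate 1 and 389 bp (quartiles 344 and 434) for replicate 2. The medians of the other shared regions were 329 and 275 bp. Merged over the replicates, a strong region spanned a median of 463 bp (289 to 1052 bp) and another shared region 368 bp. The shortest peaks of the lists, 165 bp and 162 bp long, give a scale of about 1 fragment. On that scale the median strong peak was 2.68 fragments wide in replicate 1 and 2.40 in replicate 2, and the median of the others was 1.99 and 1.70. A width of 2 fragments or more was reached by 93.6% of strong regions in replicate 1 and 84.1% in replicate 2, and by 49.8% and 27.9% of the others. A width of 4 fragments or more was found at 32 strong regions in replicate 1 (6.44%, exact binomial 95% interval 4.45 to 8.97) and at 41 others (1.77%, 1.28 to 2.40). In replicate 2 it was found at 9 strong regions (1.81%, 0.831 to 3.41) and at 22 others (0.952%, 0.597 to 1.44). Those intervals overlapped. The others included the 121 regions of high input background described above. Without them, the counts were 27 of 2191 in replicate 1 (1.23%, 0.814 to 1.79) and 7 in replicate 2 (0.319%, 0.129 to 0.657). In each replicate that interval lay below that of the strong regions.

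Width rose with enrichment among the strong regions. In replicates 1 and 2 the median widths were 420 and 363 bp at the 219 regions with a lower fold of 5 to 6. They were 446 and 393 bp at the 144 regions of 6 to 7.5, and 475 and 424 bp at the 87 regions of 7.5 to 10. The 47 regions of 10 or more had 508 and 451 bp. Below the limit, the 451 regions of 4 to 5 had 379 and 328 bp, and the 1220 regions of 3 to 4 had 321 and 267 bp. The 99 regions with a lower fold under 2, of which 98.99% had high input background, departed from this order with 354 and 362 bp. From a fold of 2 upwards, widths rose on both sides of the limit, with no level stretch next to it.

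**Figure D2:**
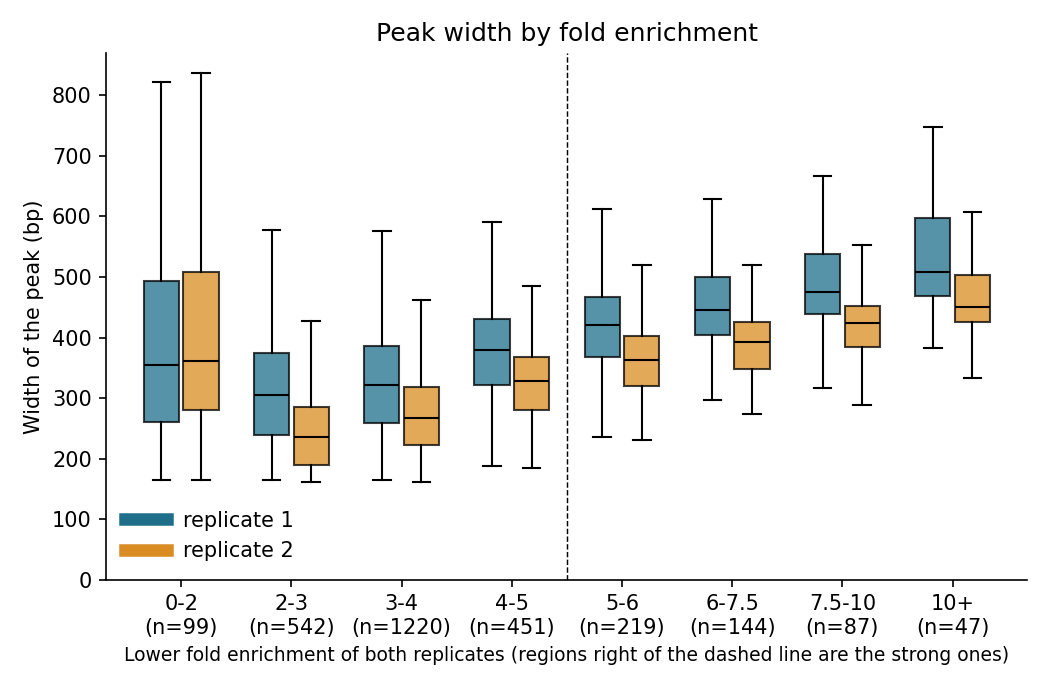
Width of the peak in bp (y axis) in replicate 1 (blue) and replicate 2 (orange) by class of the lower fold enrichment (x axis, with the number of regions); boxes are quartiles, the line is the median and whiskers reach 1.5 times the box height. From the class of 2 to 3 upwards the medians rise in both replicates, to 508 and 451 bp at folds of 10 or more.

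Widths could also be read in a replicate that had no part in choosing the regions by fold. The 1425 shared regions with a fold of at least 5 in replicate 1 had a median width of 325 bp in replicate 2 (quartiles 266 and 387), against 262 bp (214 and 323) at the 1384 regions below that limit. The 580 shared regions with a fold of at least 5 in replicate 2 had a median width of 434.5 bp in replicate 1 (378 and 492), against 329 bp (265 and 397) at the other 2229. The quartile ranges overlapped in both cases. All of these regions had passed q ≤ 0.05 in both lists. Across the 497 strong regions, Spearman's rho between the widths in the replicates was 0.41, and between fold and width 0.48 within replicate 1 and 0.45 within replicate 2. Between the fold of one replicate and the width in the other, rho was 0.27 for the fold of replicate 1 and 0.35 for the fold of replicate 2. These are correlations across regions, which share their libraries.

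Of the 5 widest strong regions, 3 held more than 1 peak in a replicate. At chr18:15369943-15370994 the replicate 1 peak covered 1052 bp, while replicate 2 had 2 separate peaks there, of which the stronger was 375 bp wide. The folds were 9.79 and 6.60, and the stronger summits fell on the same base. At chr5:46449588-46450591 the widths were 1004 and 355 bp and the folds 14.6 and 7.45. At chr4:59901762-59902674 they were 913 and 463 bp, again with 2 peaks in replicate 2, and folds of 8.96 and 6.76. The reverse was seen at chr3:53535868-53536809, where replicate 2 had 1 peak of 936 bp and replicate 1 had 2, the stronger 501 bp wide, with folds of 6.65 and 5.02. The remaining one of the 5 widest, chr12:47081932-47082966, was 1035 bp wide in replicate 1 and 573 bp in replicate 2, and its summits lay 379 bp apart.

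The narrowest strong regions were between 289 and 317 bp long. They were chr9:48924679-48924967 (289 and 230 bp in replicates 1 and 2), chr14:939995-940294 (300.0 and 257 bp), chr10:48881638-48881946 (309 and 284 bp), chr20:24711300-24711615 (236 and 295 bp) and chr5:67446212-67446528 (317 and 273 bp). Their folds ran from 5.39 to 9.92 in replicate 1 and from 5.06 to 6.94 in replicate 2. The first of them lay 234 bp from another shared region that missed the limit.

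A strong region was nearly always a single peak in each replicate. More than 1 peak was found at 1 strong region in replicate 1 and at 3 in replicate 2, which made 4 of 497 regions (0.805%, exact binomial 95% interval 0.220 to 2.05), against 15 of 2312 others (0.649%, 0.364 to 1.07). Besides the 3 named among the widest, the fourth was chr21:29952993-29953761, picked out after its values were seen, with folds of 11.4 and 5.63.

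Summits of the strong regions lay near the middle of the peak and near each other. The summit was off the centre of the peak by medians of 28 and 20.5 bp in replicates 1 and 2, or 6.46% and 5.47% of the peak width. At the other shared regions the medians were 26 and 23 bp, but 8.13% and 8.87% of their shorter peaks. The summit lay within 10% of the peak width from the centre at 69.4% of strong regions in replicate 1 and 74.4% in replicate 2, and at 57.9% and 54.3% of the others. It lay more than 25% of the peak width from the centre at 9 strong regions in replicate 1 (1.81%) and 5 in replicate 2 (1.01%). Of the other regions 161 did so in each replicate (6.96%). Without high input background these were 131 of 2191 (5.98%) and 117 (5.34%). The height above background per 100 bp of peak width had a median of 7.38 fragments in replicate 1 and 9.57 in replicate 2 at strong regions, and of 4.87 and 6.44 at the others. This measure contains the pileup on which the regions were selected. Read in the replicate not used for the fold limit, it was 7.19 against 6.50 in replicate 2, for regions with a replicate 1 fold of at least 5 and under 5. In replicate 1 it was 6.85 against 4.91, for regions split by the replicate 2 fold.

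The side to which a summit was shifted matched between the replicates at little more than an even share of regions. The summit fell left of the centre at 269 strong regions (54.1%) in replicate 1 and 264 (53.1%) in replicate 2. Where neither summit was exactly central, both fell on the same side at 272 of 490 strong regions (55.5%, exact binomial 95% interval 50.99 to 59.97). Among the other shared regions this was so at 1183 of 2278 (51.9%, 49.9 to 54.0). Both summits were more than 10% of the peak width off centre at 38 strong regions, and on the same side at 23 of those (60.5%, 43.4 to 75.96).

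The summits of both replicates were within 10 bp of each other at 104 strong regions (20.9%, 17.4 to 24.8), within 25 bp at 227 (45.7%, 41.2 to 50.2) and within 100 bp at 479 (96.4%, 94.3 to 97.8). The shares of the other shared regions were 15.8% (14.3 to 17.3), 34.1% (32.2 to 36.1) and 82.4% (80.8 to 83.97). At 18 strong regions (3.62%) the summits were over 100 bp apart, against 406 of the others (17.6%). The median distance was 32 bp at lower folds of 5 to 6, 33.5 bp at 6 to 7.5, 26 bp at 7.5 to 10 and 23 bp at 10 or more. At folds of 10 or more, 85.1% of the 47 regions had summits within 50 bp.

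**Figure D3:**
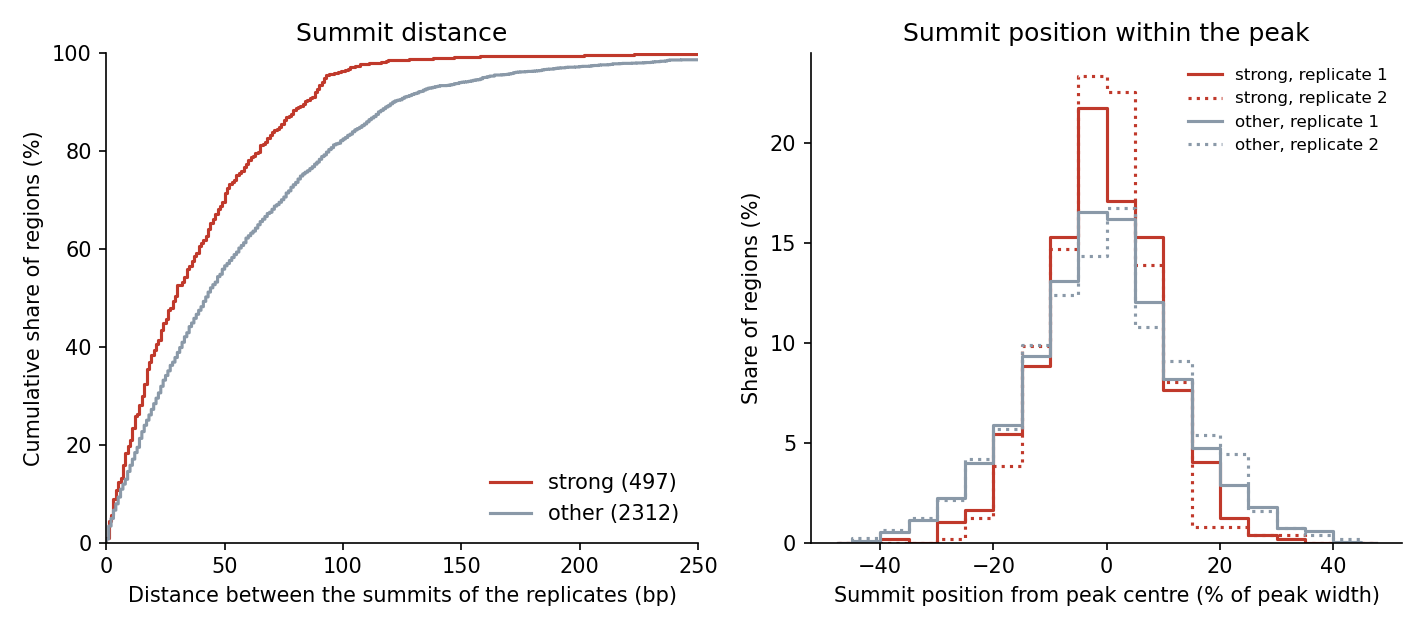
Left, cumulative share of regions in % (y axis) by the distance in bp between the summits of the replicates (x axis); right, share of regions in % (y axis) by the position of the summit from the peak centre in % of the peak width (x axis), for strong regions (red) and other shared regions (grey), replicate 1 solid and replicate 2 dotted. The red curve rises earlier, with 96.4% of strong regions within 100 bp against 82.4% of the others, and both red profiles are narrower around the centre.

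Summits fell on the same base at 5 strong regions. The 3 of highest lower fold among them were chr4:51886779-51887377, enriched 12.8-fold (9.73 to 16.5) and 11.6-fold (9.21 to 14.5), chr9:45756608-45757167 with folds of 18.8 and 8.36, and chr24:8991958-8992474 with 16.4 and 7.81. After the region on chromosome 12 named above, the summits farthest apart were 223 bp apart at chr8:42778469-42778988, with pileups of 34 and 27 fragments. At chr4:50523198-50523633 the distance was 202 bp, with pileups of 18 and 31 fragments. It was 158 bp at chr6:76986670-76987494 and 147 bp at chr13:51737297-51737755. The region on chromosome 6 was broad in both replicates, at 825 and 751 bp, and strongly enriched, 13.98-fold (10.3 to 18.6) and 8.45-fold (6.38 to 10.97).

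Few strong regions had another shared region close by, and the same held for the other shared regions. The nearest other shared region lay a median of 126 kb away (quartiles 36.1 and 360 kb), and the nearest other strong region 1073 kb away (quartiles 274 and 2734 kb). For the other shared regions the median distance was 150 kb to any shared region, or 170 kb for those without high input background. To a strong region it was 1291 kb, leaving out 47 regions on a chromosome without strong ones. Another shared region lay within 10 kb of 53 strong regions (10.7%, exact binomial 95% interval 8.09 to 13.7) and of 301 others (13.0%, 11.7 to 14.5). When the 121 with high input background were left out, the others had 206 of 2191 (9.40%, 8.21 to 10.7), so which set had more close neighbours depended on those regions, and both intervals overlapped. Within 100 kb another shared region lay near 222 strong regions (44.7%, 40.2 to 49.2) and 958 others (41.4%, 39.4 to 43.5). Without high input background the others had 852 of 2191 (38.9%, 36.8 to 41.0), and these intervals overlapped too. Regions close together are not independent, and these intervals are too narrow for that.

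Another strong region lay within 100 kb of 69 strong regions (13.9%, 11.0 to 17.2) and of 215 other shared regions (9.30%, 8.15 to 10.6). Without high input background the latter were 213 of 2191 (9.72%, 8.51 to 11.0). Within 1 Mb it was 235 strong regions (47.3%, 42.8 to 51.8) and 997 others (43.1%, 41.1 to 45.2). At 100 kb the interval of the strong regions lay above that of all others and just overlapped that of the others without high input background, and the difference was not tested.

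Close strong neighbours came as pairs. Linking shared regions within 10 kb gave 143 runs, of which 44 held a strong region and 9 held 2 strong regions. No run held more than 2, and 444 strong regions stood alone. The run with most shared regions among these 9 lay on chromosome 29 between 37205016 and 37215927 and held 3. It ran from chr29:37205016-37205506, enriched 20.2-fold and 8.19-fold in replicates 1 and 2, to chr29:37215573-37215927, enriched 7.44-fold and 5.37-fold.

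The closest pair of strong regions lay on chromosome 6. The broad region chr6:76986670-76987494 followed chr6:76986066-76986539 after a gap of 130 bp, and the mean summits were 596.5 bp apart. The neighbour was enriched 17.98-fold and 9.57-fold, so both members of the pair stood among the higher folds of the set. On chromosome 29, chr29:13378357-13378707 (5.05-fold and 5.71-fold) lay 901 bp from chr29:13379609-13380100 (12.5-fold and 8.97-fold). On chromosome 9, chr9:55261063-55261686 (5.65-fold and 5.55-fold) lay 1824 bp from chr9:55263511-55264102 (6.83-fold and 7.83-fold). Gaps of 3025 and 3061 bp separated the next pairs, chr4:28563766-28564187 from chr4:28567213-28567608 and chr8:27597230-27597653 from chr8:27600715-27601191. Folds in these last 2 pairs ran from 5.07 to 9.79 in replicate 1 and from 5.098 to 6.14 in replicate 2.

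Few of the weak peaks of either list lay near strong regions. Peaks with q above 0.05 had no part in choosing the regions, and there were 20.9 of them per Mb in replicate 1 and 17.2 in replicate 2. Between 1 and 5 kb from a strong region their density was 11.1 per Mb in replicate 1, or 0.529 times that of the whole list (exact Poisson 95% interval 0.384 to 0.710), from 44 peaks. In replicate 2 it was 4.53 per Mb, or 0.263 times (0.156 to 0.416), from 18 peaks. Between 5 and 20 kb the ratios were 0.526 (0.448 to 0.613) and 0.362 (0.293 to 0.444), and between 20 and 100 kb 0.608 (0.571 to 0.646) and 0.528 (0.490 to 0.567). Within 1 kb of the 497 regions, replicate 1 had 12 weak peaks, a ratio of 0.577 (0.298 to 1.01) whose interval reached 1. Replicate 2 had 1 weak peak there, a ratio of 0.0585 (0.00148 to 0.326).

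The same direction was seen around the other shared regions without high input background. Their ratios were 0.616 (0.539 to 0.702) and 0.477 (0.403 to 0.562) at 1 to 5 kb, and 0.641 (0.600 to 0.685) and 0.556 (0.513 to 0.601) at 5 to 20 kb. At 20 to 100 kb they were 0.718 (0.698 to 0.737) and 0.630 (0.610 to 0.650). In each replicate the ratio around strong regions was the lower at every distance, and the intervals of both sets were apart at 20 to 100 kb in both replicates and at 5 to 20 kb in replicate 2. The intervals treat peaks as independent, and windows of neighbouring regions overlap.

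**Figure D4:**
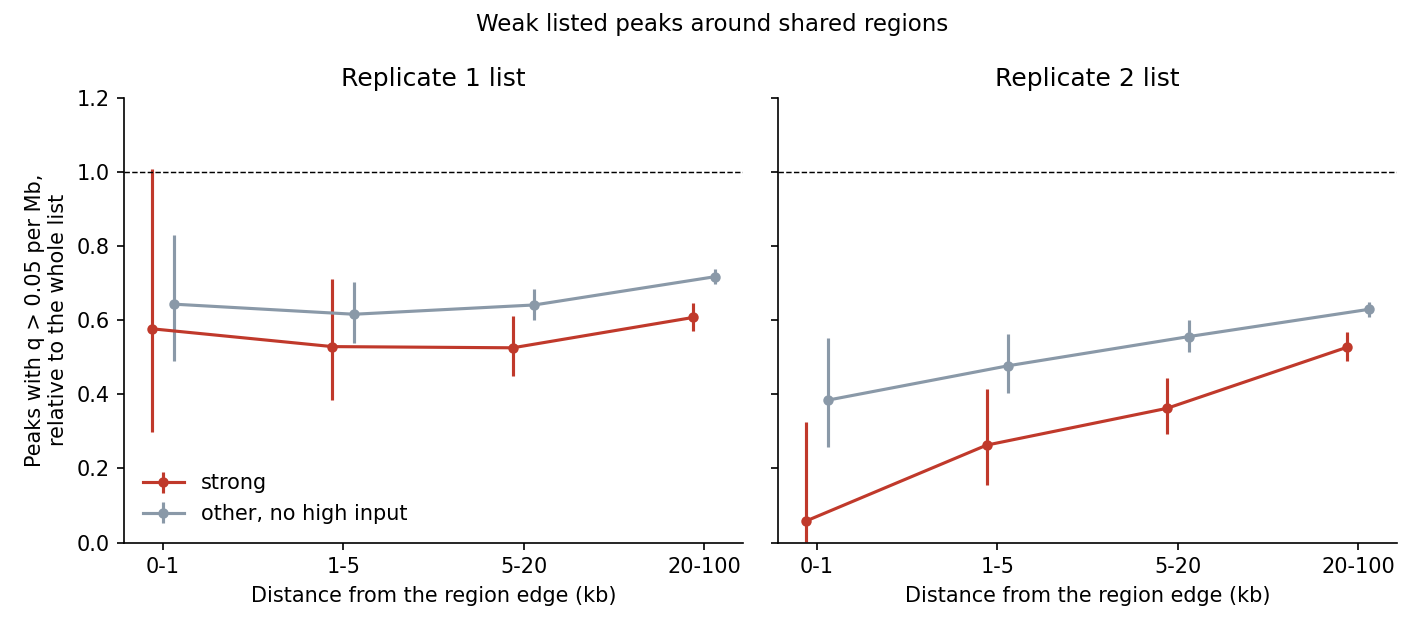
Density of listed peaks with q above 0.05, relative to the whole list (y axis, 1 marks the average), by distance from the region edge in kb (x axis), around strong regions (red) and other shared regions without high input background (grey); left the replicate 1 list, right the replicate 2 list, with exact Poisson 95% intervals. All points lie under 1, and red lies under grey in each window, down to 0.0585 within 1 kb in replicate 2, where it rests on 1 peak; the replicate 1 interval within 1 kb reaches 1.

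Strong regions were found on 38 of 39 chromosomes, at 0.214 per Mb over 2326 Mb, with chromosome lengths taken up to the last listed peak. Chromosomes 1, 4, 9, 5 and 2 held 31, 31, 30, 29 and 21 of them, together 142 (28.6%). These chromosomes also held many shared regions of any strength, 169, 117, 105, 153 and 118 of the 2809. Of 485 bins of 5 Mb, 462 held a shared region and 270 a strong one. Exactly 1 strong region was held by 139 bins, 2 by 80 and 3 or more by 51. The most in a bin was 6, reached in 7 bins. Along the chromosome the strong regions were spread broadly, with 19.3%, 17.9%, 22.1%, 23.1% and 17.5% in successive stretches of equal length, 5 to a chromosome. Without high input background, the other shared regions had 18.2%, 20.3%, 22.3%, 20.8% and 18.4%.

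Chromosome starts, counting the first 250 kb, held 2 of the 497 strong regions (0.402%, exact binomial interval 0.0488 to 1.45). The other shared regions had 96 of 2312 there (4.15%, 3.38 to 5.05). Without high input background, 10 of 2191 remained (0.456%, 0.219 to 0.838), and this interval overlapped that of the strong regions. The strong ones were chr10:228572-229049, with folds of 7.92 and 6.76, and chr3:34686-35094, with folds of 5.65 and 6.03. Their backgrounds were 2.62 and 2.04 times the genome-wide value in replicate 1 and 1.34 and 1.11 times in replicate 2.

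Chromosome 9 had the highest density, 0.491 strong regions per Mb (30 regions, exact Poisson 95% interval 0.331 to 0.701). Strong regions were 28.6% (exact binomial interval 20.2 to 38.2) of its 105 shared regions, against 17.7% of all shared regions. It also had the fewest weak peaks per Mb of the 39 chromosomes in both lists, 12.9 in replicate 1 and 9.29 in replicate 2, and no region of high input background. The median input background over its listed peaks was 1.07 times the genome-wide value in both replicates. With a fold limit of 6, chromosome 24 was the densest, at 0.252 per Mb. Chromosome 30 had 15 strong regions among 51 shared (29.4%, 17.5 to 43.8), and chromosome 4 had 31 among 117 (26.5%, 18.8 to 35.5). The lower bound of the interval lay above 17.7% on 2 of the 39 chromosomes, 9 and 4.

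Chromosome 34 held no strong region among its 47 shared regions, which allows a share of up to 6.38% (3 counts of the total). Its 42.1 Mb give an upper limit of 0.0713 strong regions per Mb. The highest lower fold on chromosome 34 was 4.64. Of its shared regions 18 had high input background, and 0 of the other 29 allows up to 10.3%. With a fold limit of 4 it held 5 regions, and with the limit applied in replicate 1 only it held 12. The median folds of its shared regions were 3.64 and 2.94, against 5.06 and 3.59 over all shared regions. Chromosomes were picked as the extremes of 39, and the differences between them were not tested.

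Chromosome 22 held 4 strong regions (0.0651 per Mb), one of which was the top region named above. The other three were strongly enriched too. At chr22:29555628-29556171 the folds were 17.4 and 11.2, at chr22:48354116-48354615 they were 15.8 and 8.16, and at chr22:54993962-54994522 they were 10.4 and 8.97. All 4 lay above the median fold of the strong regions in both replicates, but they were picked out after their values were seen.

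**Figure D5:**
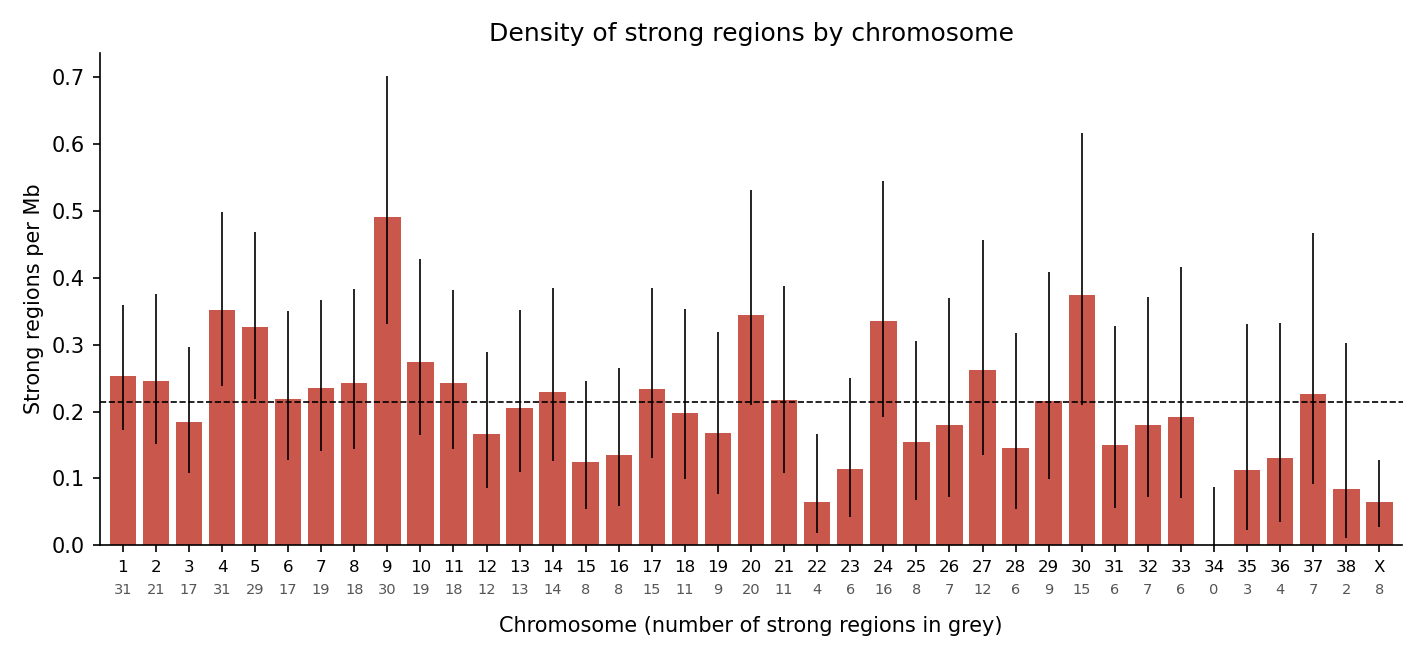
Strong regions per Mb (y axis) on each chromosome (x axis, with the number of strong regions in grey); error bars are exact Poisson 95% intervals and the dashed line is the density over all chromosomes, 0.214 per Mb. Chromosome 9 stands highest at 0.491, chromosome 34 has none, and chromosomes X and 22 lie near 0.065.

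The X chromosome held 8 strong regions, at 0.0646 per Mb against 0.222 on the autosomes, a ratio of 0.291 (exact interval of the split of counts 0.125 to 0.578). The ratio of the other shared regions was 0.289 (0.203 to 0.400), from 37 regions on the X. Strong regions were 17.8% (8.00 to 32.1) of the shared regions of the X, next to 17.7% over all chromosomes. The X to autosome ratios of the strong and the other regions lay within each other's intervals. Its weak peaks were dense, at 26.7 per Mb in replicate 1 and 21.3 in replicate 2. The median input background over its listed peaks was 1.03 times the genome-wide value in both replicates.

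The highest replicate 2 fold of the 8 was at chrX:95655200-95655680, with pileups of 50 and 65 fragments and folds of 8.91 (6.66 to 11.7) and 10.6 (8.19 to 13.4). It was the single one with the higher fold in replicate 2, and its nearest shared region lay 1939186 bp away. By the lower fold, chrX:74518258-74518774 came first, with pileups of 57 and 48 fragments and folds of 12.8 (9.73 to 16.5) and 9.04 (6.71 to 11.9). It lay 315025 bp from chrX:74202810-74203232, one of the regions just inside the limit. Lower on the chromosome were chrX:39317883-39318354 with folds of 7.84 and 6.52 and chrX:39619698-39620130 with 9.05 and 5.24. The closest on the X were chrX:79378124-79378551, with folds of 7.99 and 5.76, and chrX:79394582-79395017, with 6.97 and 5.07. They lay 16030 bp apart, and a weaker shared region stood 3241 bp beyond the second. The last, chrX:55544596-55545118, had folds of 8.59 and 5.22 and no shared region within 674 kb.

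Across the 38 autosomes the density of strong regions went with that of the other shared regions at a Spearman's rho of 0.40, and with that of weak peaks at -0.31 in replicate 1 and -0.33 in replicate 2. For the other shared regions rho with the weak peaks was 0.03 and 0.16. These correlations describe chromosomes that share the same libraries, and were not tested.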

How the data were processed

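Per the labels' protocols, MDCK cells expressing human TWIST1 were crosslinked in 1% formaldehyde for 10 min, sonicated, and unstranded TruSeq libraries were made. Per the submitters' processing notes, Bowtie2, Picard and MACS2 were used with the build CanFam3.1; versions, filters and which input served which list are not stated there. The deposited lists, 1 per TWIST1 library, held 73701 and 60370 peaks in narrowPeak format. In them the authors deposited fold enrichment (a ratio to local background), −log10 p, −log10 q, a score (10 times the −log10 p without its decimals, not used) and the summit offset, another unit, in bases. Inputs had no list of their own.

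Pileup and background were recovered by solving the formulas of MACS2 for fold and Poisson p together. Peaks with −log10 q of at least 1.30103 that overlapped by 1 bp or more were merged. The regions and the limits were chosen with earlier results of these data known. Regions were named by a fixed rule: extremes of fold, width, summit distance, replicate ratio and spacing, those at the limit, at chromosome starts and on the X; the regions of chromosome 22 were added after their values were seen. Recovery and merging were tested on simulated data, where 100% of 1000 planted shared regions were found. Alternatives were other fold and q limits, other overlap, another representative peak, and the fold limit or the values of a single replicate at the same shared regions. Gene names and sequences were not used. Python 3.11.15, numpy 2.4.6, scipy 1.17.1, pandas 2.3.3 and matplotlib 3.10.9 were used.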

Additional observations from a re-analysis of the deposited data

How the results depend on the processing

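With 1 group of 2 TWIST1 libraries, no value here has a test, and regions are not replicates. The number of strong regions was 497 at q of 0.01, with a larger overlap (50% of the shorter peak) and with the peak of highest fold. It was 948 at a fold limit of 4 and 278 at a limit of 6. With the fold limit applied in replicate 1 only it was 1425, and in replicate 2 only 580. A peak with q ≤ 0.05 was still required in both replicates. Read in a single replicate at the same regions, the median width of strong regions was 389 to 443 bp, and that of the others 275 to 329 bp. At q of 0.01 the median summit distance of the other regions was 39 bp and the summit lay 7.90% of the peak width off centre. Another shared region lay within 5 kb of 7.04% of strong and 9.30% of other regions, and within 20 kb of 18.3% and 17.8%; without regions of high input background the other regions had 9.40% within 10 kb. On chromosome 9 strong regions were 42.9% of shared regions at a limit of 4, 14.3% at a limit of 6 and 38.96% at q of 0.01. On chromosome 34 they were 10.6% at a limit of 4. Over all chromosomes the limits of 4 and 6 took in 948 and 278 of the 2809 shared regions, so the shares moved there too. At q of 0.01 chromosome 9 still held 30 strong regions, set against fewer shared regions. Other limits admit more or fewer regions by construction, and the cause of the other shifts was not tested. Of 65 alternatives to these summary values 48 stayed within a range set around the main value. For the number of regions that range was a fixed factor, which is not a measured spread. For width and for the summit offset from the centre it was the standard deviation of the replicate medians. For the other values it was a 95% interval, so the count of 48 mixes unlike measures. Several of these 65 alternatives could hardly move a value of the strong regions. None of the strong regions had high input background, and only 4 of 497 held more than 1 peak in a replicate. The q of 0.01 left their number, median width and median summit distance unchanged, so it was no separate check on them. The folds of named regions are deposited values that limits on q or overlap cannot change, so they were not counted. The motif alternative was not run, because no genome of the build was used. No paired analysis was possible because the input libraries have no values of their own and only 1 group remains.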
